A study of Mus musculus with 45 samples.

Results

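The effect of clozapine N-oxide (CNO) on gene expression in mice that drank alcohol was described by comparing 12 CNO with 11 vehicle libraries, chosen by their labels, out of 45 libraries in the whole study. Each library is the nucleus accumbens RNA of 1 female HDID-1 mouse, of a line bred for high blood alcohol after drinking in the dark. All 23 mice received 0.5 uL each of rAAV2/5-CMV-Cre-GFP and rAAV2-hSyn-DIO-hM3Dq-mCherry on both sides of the nucleus accumbens, so the vehicle mice carried the receptor too. The hSyn promoter drives expression in neurons, and hM3Dq is a human muscarinic receptor engineered to respond to CNO and to signal through Gq. Both groups drank alcohol daily for 6 weeks. CNO mice were given vehicle in week 1, CNO at 1 mg/kg in weeks 2 to 5 and vehicle in week 6, and vehicle mice were given vehicle throughout. Since week 6 was a vehicle week in both groups, the comparison is between mice with and without a past course of CNO. No age is given in the labels.

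The genes that differed most belong to the interferon response. Type I interferons signal through the receptor Ifnar1 and Ifnar2 to transcription factors that include Stat2 and Irf9, which switch on a large set of antiviral genes, and interferon gamma switches on a second set that includes large GTPases and the genes of antigen presentation. In brain tissue microglia, astrocytes, vessel cells and any infiltrating leukocytes carry out this response, and chemokines of the set attract T and B cells. In a tissue punch, fewer cells of a type and less RNA per cell cannot be told apart.

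Gene counts summed to between 27.1 M and 34.9 M per CNO mouse and between 26.8 M and 38.3 M per vehicle mouse (means 31.3 and 32.6 M, two-sided permutation p = 0.309). Markers of medium spiny neurons were at 9508 to 14058 CPM (reads of a gene per 1 M assigned reads) summed over 20 genes with CNO and at 9132 to 13695 CPM with vehicle. These neurons make up most of the nucleus accumbens. Markers of cortical glutamatergic neurons varied more between mice, from 637 to 1460 CPM summed over 14 genes with CNO and from 704 to 1587 CPM with vehicle. Their mean log2 CPM was 5.04 with CNO and 5.09 with vehicle (two-sided permutation p = 0.814). Slc17a7, a member, ran from 47.0 to 573 CPM with CNO and from 112 to 599 CPM with vehicle. Vehicle replicates 5 and 10 stood apart from the other 21 libraries in immune genes. Over the 138 genes called below, the median gene was at 13.1 times the vehicle median in replicate 5 and at 5.75 times in replicate 10, against 0.635 to 1.56 times in the other 9 vehicle mice and 0.309 to 0.923 times in the 12 CNO mice. Called genes are therefore given by means and by ranks below, and most also by their log2 fold change without these 2 libraries. Among the CNO mice, replicate 12 was lowest in 79 of the 138 genes, and replicates 4, 9 and 10 were highest in 36, 30 and 30.

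By the comparison of means, interferon and immune genes were lower after CNO, and the list of interferon-induced genes had the most negative median rank-based shift of the 37 gene lists examined. With genes of a mean CPM of at least 1 only, that median was -0.78, and MHC class II, with 7 members left, was at -1.09. edgeR called 138 of 15852 tested genes at an adjusted p under 0.05, and all 138 were lower with CNO (0.871% of the genes tested). No gene passed in the higher direction, where the smallest adjusted p was 0.0696 (0%). Without a correction 1161 genes had p under 0.05 (7.32%). The exact two-sided rank-sum permutation test called 0 genes (0%), with a smallest adjusted p of 0.758, although the smallest p that 12 against 11 mice allow is 1.48e-06. At an unadjusted rank-sum p under 0.05 there were 585 genes (3.69%), of which 346 were lower (2.18%) and 239 higher (1.51%). DESeq2 called 179 genes (1.13%), and limma-trend on the 23 libraries called 0.

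The ranks split the 138 genes. A rank-sum p under 0.05 was found for 90 of them and a larger p for 48, and both sets had a similar median log2 fold change of the means, -1.91 and -1.93. The median Hodges-Lehmann shift, which is the median of all differences in log2 CPM between a CNO and a vehicle mouse and so is moved little by a few extreme mice, was -0.81 in the first set and -0.54 in the second. At least 11 of the 12 CNO mice lay below the vehicle median in 72 of the 138 genes, against 378 of all tested genes (2.38%), and all 12 did so in 24. The same data chose the 138 genes and gave these counts, which are a description of them. No gene of the 15852 had groups that did not overlap.

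**Figure D1:**
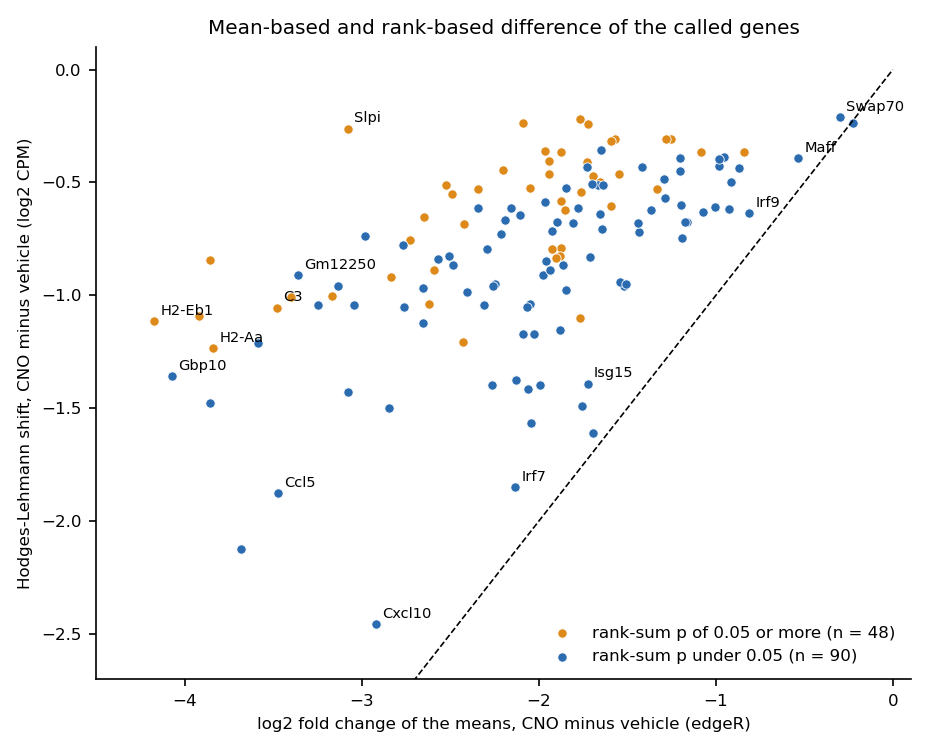
Each point is 1 of the 138 called genes, with its log2 fold change of the means (edgeR) on the horizontal axis and its Hodges-Lehmann shift in log2 CPM on the vertical axis. The dashed line marks equal values, near which Maff, Swap70, Irf9, Isg15 and Irf7 lie, while H2-Eb1, H2-Aa, C3 and Slpi lie far above it; blue genes have a rank-sum p under 0.05 (90) and orange genes a larger one (48).

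The mean was set by few mice in most of the 138 genes. Vehicle replicate 5 was the highest vehicle library in 127 of them and replicate 10 in 10, and they were the 2 highest together in 134. The exception was Gadd45g, which was highest in replicate 6. The 2 highest vehicle mice held a median of 68.3% of the summed vehicle level of a called gene, with a range from 20.0% to 94.2%. An even share would be 18.2%, and the median over all tested genes was 20.9%. In the CNO group the 2 highest mice held a median of 28.2%. Without replicates 5 and 10, 0 genes were called by edgeR (405 at an unadjusted p under 0.05, 2.55%) and 0 by ranks, 137 of the 138 genes still had a negative log2 fold change, and 49 had a rank-sum p under 0.05 in the lower direction, against 205 of all genes tested in that fit (1.29%). The remaining mice were also in the fit that chose the 138 genes, so the counts of 137 and 49 are a description too.

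**Figure D2:**
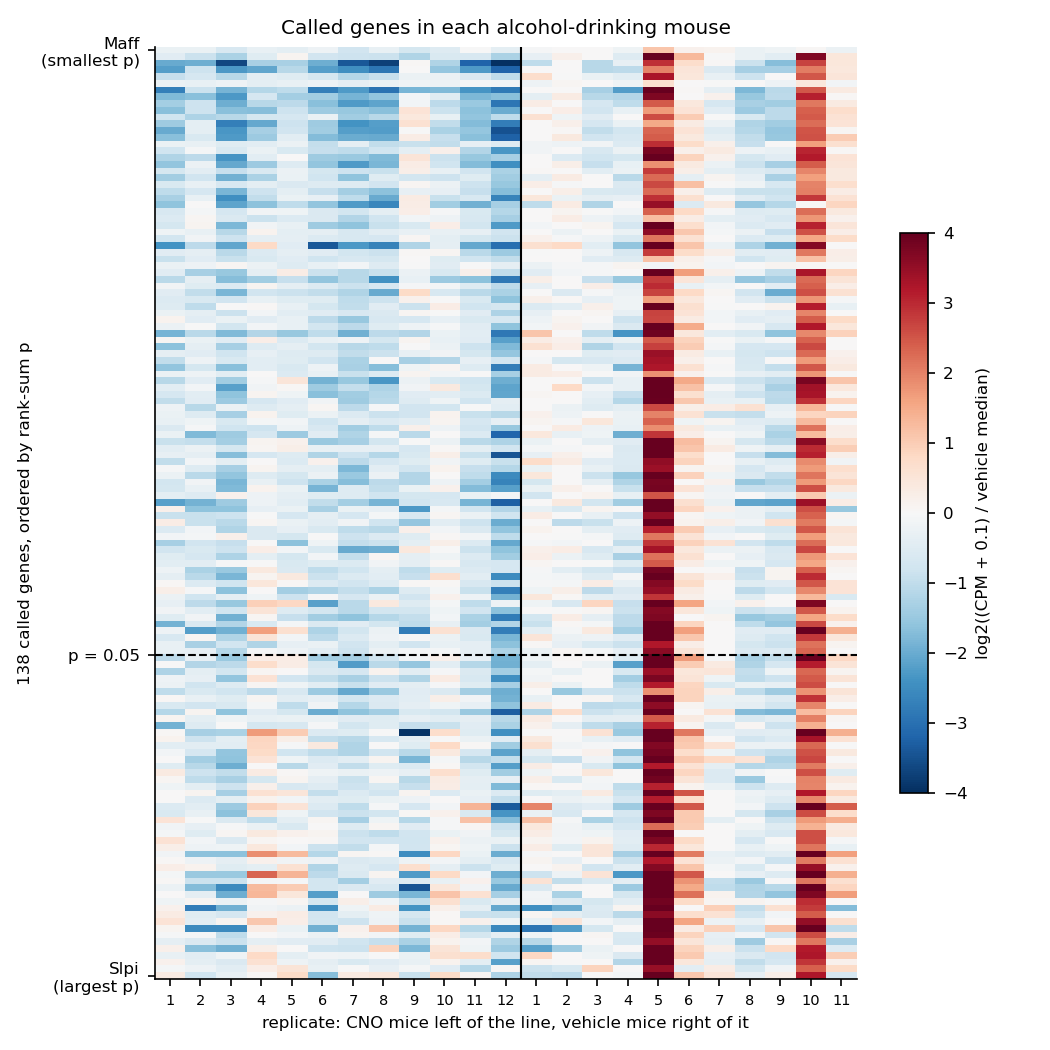
Colours show log2 of the level over the vehicle median (CPM with 0.1 added to both) of the 138 called genes in 12 CNO mice, left of the line, and 11 vehicle mice, right of it, with genes ordered by rank-sum p. Vehicle replicates 5 and 10 are high from top to bottom, whereas the low values of the CNO mice are most even above the dashed line at p = 0.05.

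T cell chemokines had the largest rank-based shifts of the called genes. Cxcl10, which attracts T cells through Cxcr3, ran from 0.116 through a median of 0.767 to 3.45 CPM with CNO and from 0.967 through 3.35 to 26.1 CPM with vehicle. All CNO mice except replicate 9 lay below the vehicle median, and 5 vehicle mice lay above every CNO mouse. Cxcl10 fell by 2.92 ± 0.58 (SE) on the log2 scale (adjusted p = 0.00876), its shift was -2.46 (95% interval -3.95 to -1.10, rank-sum p = 0.000143), and without vehicle replicates 5 and 10 the log2 fold change was -1.67 and the rank-sum p 0.000939. Ccl5, a chemokine that attracts T cells, ran from 0.129 through 0.323 to 0.874 CPM with CNO and from 0.276 through 1.66 to 27.5 CPM with vehicle. Each of the 12 CNO mice was below the vehicle median, and 7 of the 11 vehicle mice were above every CNO mouse. Ccl5 fell by 3.47 ± 0.63 (adjusted p = 0.00876) with a shift of -1.88 (rank-sum p = 0.000981), and had a log2 fold change of -1.56 without replicates 5 and 10. Cxcl9, also a ligand of Cxcr3, fell by 3.68 ± 0.72 with a shift of -2.12 (rank-sum p = 0.00449). Cxcl13, which draws B cells, fell by 3.58 ± 0.70 (adjusted p = 0.00876) but shifted by -1.21 (rank-sum p = 0.0268), and its vehicle level ran from 1.00 through 4.74 to 177 CPM. Without replicates 5 and 10 the log2 fold change was -1.32 for Cxcl9 and -0.93 for Cxcl13 (rank-sum p = 0.0184 and 0.0955). Of the 12 tested chemokines of the list 7 were called lower and 6 had a rank-sum p under 0.05. Their median log2 fold change was -1.82 and their median shift -0.67, and without replicates 5 and 10 the median log2 fold change was -0.45. Over all tested genes these medians were 0.00.

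Antiviral genes of the type I interferon response were lower by means and, before correction, by ranks. Of 34 tested members 21 were called lower, 27 had a rank-sum p under 0.05 and 25 had at least 11 CNO mice below the vehicle median. All 34 had negative values by either measure. The median log2 fold change was -1.40, the median shift -0.86, and without vehicle replicates 5 and 10 the median log2 fold change was -0.72. Summed over the list, the level ran from 111 through 171 to 301 CPM with CNO and from 160 through 285 to 1031 CPM with vehicle, with the third highest vehicle mouse at 367 CPM.

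Isg15 encodes a ubiquitin-like protein that is joined to other proteins in infected cells. It was at 1.54, 2.10 and 9.54 CPM (lowest, median, highest) with CNO and at 2.30, 6.46 and 34.3 CPM with vehicle. The groups overlapped, mainly through CNO replicate 9, which had 9.54 CPM against 3.58 CPM in the next CNO mouse. Isg15 fell by 1.72 ± 0.39 (adjusted p = 0.0135, shift -1.39, rank-sum p = 0.000981). Irf7, the transcription factor that amplifies interferon production, was at 0.815, 1.72 and 8.44 CPM with CNO and at 3.22, 8.28 and 34.2 CPM with vehicle. It fell by 2.13 ± 0.43 (adjusted p = 0.00876, shift -1.85, rank-sum p = 0.000546), and the vehicle median was above 11 of 12 CNO mice. Ifit1, which binds viral RNA, fell by 1.70 ± 0.42 (adjusted p = 0.0346) with a shift of -1.61, so its means and ranks were nearly equal. Bst2, which tethers budding virus, fell by 1.99 ± 0.40 (adjusted p = 0.00876), with a vehicle median above each of the 12 CNO mice (rank-sum p = 0.000981). Slfn2, of the Schlafen family of growth regulators, fell by 1.93 ± 0.36, likewise with all 12 CNO mice below (shift -0.89, rank-sum p = 0.000737). Zbp1, a sensor of nucleic acids, fell by 2.65 ± 0.53 with a shift of -1.12 (rank-sum p = 0.00218). Without vehicle replicates 5 and 10 the log2 fold change was -0.98 for Isg15, -1.32 for Irf7, -1.01 for Ifit1, -1.04 for Bst2, -0.76 for Slfn2 and -0.88 for Zbp1. The rank-sum p of these 6 genes then ran from 0.00244 for Irf7 to 0.00929 for Zbp1.

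Some members were clearer by ranks than by means. Mx1, an antiviral GTPase that was picked after its values were seen, did not pass edgeR (log2 fold change -1.39 ± 0.49, adjusted p = 0.26) but had a shift of -1.69 and a rank-sum p of 0.000981. It was at 0.151, 0.559 and 4.42 CPM with CNO, where replicate 9 was the highest, and at 0.587, 1.91 and 6.05 CPM with vehicle. Oas1b and Oas2, of the oligoadenylate synthetase family, likewise missed the edgeR threshold and had shifts of -1.13 and -1.04 (rank-sum p = 0.00218 and 0.00449).

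**Figure D3:**
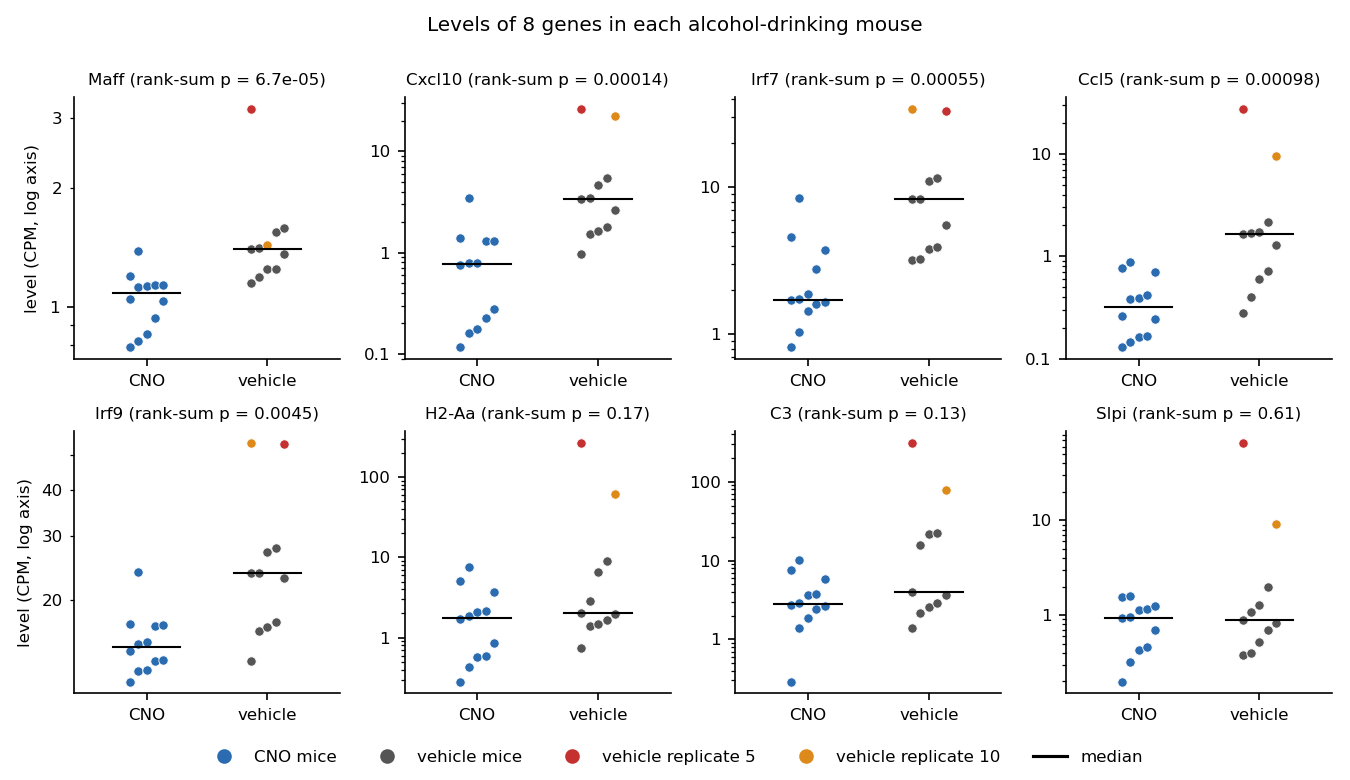
Level in CPM on a log axis of 8 genes in each CNO and each vehicle mouse, with the median as a line and the unadjusted rank-sum p above each panel. For Cxcl10, Irf7, Ccl5 and Irf9 most CNO mice lie below most vehicle mice, whereas H2-Aa and Slpi have similar medians. In H2-Aa, Slpi and C3 vehicle replicates 5 (red) and 10 (orange) lie far above the rest. For C3 vehicle replicates 1, 6 and 11 also lie above every CNO mouse.

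The start of a gene can carry the interferon-stimulated response element, a site bound by complexes with Irf9 or by other Irf proteins. Promoters of 3 genes that were lower by means and ranks are shown with 1 that was lower by means only, each from 250 bases before to 50 after the start, 5′ to 3′ on the gene's strand (RefSeq, GRCm38.p6). They are Cxcl10 (chr5:92348840-92349139, minus strand), Isg15 (chr4:156200769-156201068, minus), Gm12250 (chr11:58183593-58183892, plus) and H2-Aa (chr17:34287774-34288073, minus). Capitals mark matches to GAAANNGAAA on either strand.
Cxcl10: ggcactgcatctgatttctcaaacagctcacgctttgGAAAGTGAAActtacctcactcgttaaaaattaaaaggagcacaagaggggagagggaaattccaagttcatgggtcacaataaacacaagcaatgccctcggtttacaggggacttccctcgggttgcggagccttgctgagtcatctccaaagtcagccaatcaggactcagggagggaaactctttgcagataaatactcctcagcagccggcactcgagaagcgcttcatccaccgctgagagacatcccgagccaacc
Isg15: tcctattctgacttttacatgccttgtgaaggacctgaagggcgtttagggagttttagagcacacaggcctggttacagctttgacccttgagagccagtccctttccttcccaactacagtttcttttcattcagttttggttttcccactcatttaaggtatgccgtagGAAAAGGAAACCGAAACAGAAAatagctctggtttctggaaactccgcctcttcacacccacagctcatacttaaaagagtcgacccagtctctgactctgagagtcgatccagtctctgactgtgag
Gm12250: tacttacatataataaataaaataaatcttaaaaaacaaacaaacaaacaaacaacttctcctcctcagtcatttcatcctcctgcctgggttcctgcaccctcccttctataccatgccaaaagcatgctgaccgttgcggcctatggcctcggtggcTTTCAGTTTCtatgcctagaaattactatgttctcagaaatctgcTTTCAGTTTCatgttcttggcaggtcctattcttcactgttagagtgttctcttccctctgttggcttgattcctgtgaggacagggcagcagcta
H2-Aa: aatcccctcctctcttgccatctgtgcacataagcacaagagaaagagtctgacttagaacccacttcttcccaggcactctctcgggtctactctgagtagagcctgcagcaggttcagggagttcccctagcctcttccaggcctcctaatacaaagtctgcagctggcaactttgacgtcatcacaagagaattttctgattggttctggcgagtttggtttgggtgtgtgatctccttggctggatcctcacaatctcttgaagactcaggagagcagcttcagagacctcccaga
Cxcl10 held 1 match, which starts 213 bases before the gene's start, Isg15 held 3 overlapping matches, and Gm12250 held 2 on the opposite strand. H2-Aa held none in this window. Maff, described below and not shown here, was also lower by means and ranks and held none in any of the 3 windows read for it. The GENCODE annotation of the same build starts Gm12250 at position 58187739, downstream of the RefSeq window shown, and which start is used in this tissue was not tested. Among 11900 tested genes with a promoter sequence 433 held a match (3.64%). Of the 138 called genes 96 had a sequence and 32 of these held a match (33.3%). The match was in 27 of 62 called genes with a rank-sum p under 0.05 (43.5%) and in 5 of the 34 with a larger p (14.7%). The letters TTCNNNGAA, the core of the gamma-activated site, were in 993 of the 11900 promoters (8.345%), in 21 of the 96 called genes (21.9%) and in 7 of the 11 GTPases. By list, for GAAANNGAAA, 13 of 24 interferon-induced genes, 10 of 11 GTPases, 5 of 15 MHC class I genes, 2 of 9 chemokines and 1 of 7 MHC class II genes held it.

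GTPases induced by interferon gamma, which attack the vacuoles of intracellular microbes, were nearly all called, but with shifts much smaller than their fold changes. Of 19 tested members 18 were called lower and 14 had a rank-sum p under 0.05. Gbp11 did not pass, with a log2 fold change of 0.26. The median log2 fold change was -2.49, the median shift -0.78 and the median without vehicle replicates 5 and 10 -0.56. In all 19 genes vehicle replicate 5 was the highest vehicle mouse. The summed level was 48.7 to 149 CPM in 9 vehicle mice and 552 and 1294 CPM in the other 2, against 30.7 to 79.5 CPM with CNO.

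Gm12250, an immunity-related GTPase that the GENCODE annotation labels a processed pseudogene, had the smallest rank-sum p of the list. It was at 0.437, 0.652 and 1.30 CPM with CNO and at 0.801, 1.20 and 49.6 CPM with vehicle, where the third highest mouse was at 3.09 CPM. It fell by 3.36 ± 0.58 (adjusted p = 0.00876), with a shift of -0.91 (95% interval -1.82 to -0.46, rank-sum p = 9.91e-05) and 11 CNO mice below the vehicle median. Gbp10, a guanylate-binding protein, fell by 4.07 ± 0.76 with a shift of -1.36 (rank-sum p = 0.0156), and the 2 highest vehicle mice held 88.6% of its vehicle sum. Irgm1, a regulator of the family, fell by 1.70 ± 0.37 (adjusted p = 0.0128) and had all 12 CNO mice below the vehicle median with a shift of -0.51 (rank-sum p = 0.0129). Tgtp2 fell by 3.40 ± 0.65 with a rank-sum p of 0.0512, Ifi47 by 3.13 ± 0.58 with 0.0188 and Iigp1 by 2.66 ± 0.53 with 0.0156. Gbp2 fell by 1.94 ± 0.42 (adjusted p = 0.0125) with a rank-sum p of 0.0595. Without vehicle replicates 5 and 10 the log2 fold change was -0.94 for Gm12250 (rank-sum p = 0.000456), -1.18 for Gbp10 (0.0585), -0.39 for Irgm1 (0.0491), -0.78 for Tgtp2 (0.169), -0.75 for Ifi47 (0.0815), -0.73 for Iigp1 (0.0693) and -0.32 for Gbp2 (0.193). Tgtp1 and Tgtp2, the Gbp genes of each cluster and the classical MHC genes below are near copies of each other, and no source used here says how reads were divided among them.

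The receptors and transcription factors upstream of these genes differed less. Of 18 tested members 3 were called lower, Irf1 and Irf9 among them, and 5 had a lower rank-sum p under 0.05, with a median log2 fold change of -0.19 and a median shift of -0.12. Irf9, a partner of Stat2, was at 11.9, 14.8 and 23.9 CPM with CNO and at 13.6, 23.7 and 53.9 CPM with vehicle. Irf9 fell by 0.81 ± 0.20 (adjusted p = 0.0356, shift -0.64), with 11 CNO mice below the vehicle median. Irf1, which mediates much of the interferon gamma response, fell by 1.25 ± 0.31 (adjusted p = 0.0316) but had a shift of -0.31 and a rank-sum p of 0.118. Without vehicle replicates 5 and 10 these log2 fold changes were -0.45 for Irf9 (rank-sum p = 0.0184) and -0.23 for Irf1 (0.422). Ifnar1 was at medians of 60.5 CPM in both groups (log2 fold change -0.01, 95% interval of the shift -0.03 to 0.02), and the log2 fold change of Ifnar2 was -0.17 (edgeR adjusted p = 0.125, rank-sum p = 0.00562).

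Antigen presentation genes were lower by means, and fewer of them had a rank-sum p under 0.05. Of 18 tested MHC class I and peptide loading genes 9 were called and 4 had a rank-sum p under 0.05, with a median log2 fold change of -1.14, a median shift of -0.34 and a median of -0.14 without vehicle replicates 5 and 10. H2-K1, a classical class I chain, was at 8.91, 28.1 and 72.6 CPM with CNO and at 18.9, 49.0 and 665 CPM with vehicle. It fell by 1.88 ± 0.46 (adjusted p = 0.0308, shift -0.83, rank-sum p = 0.0512). H2-D1, another classical chain, fell by 1.98 ± 0.44 with a rank-sum p of 0.0374. Tap1, the peptide transporter, fell by 1.64 ± 0.38 (rank-sum p = 0.0317), and Psmb8, a subunit of the immunoproteasome, by 1.81 ± 0.40 (rank-sum p = 0.0374). Psmb9, its partner subunit, fell by 1.87 ± 0.46 (adjusted p = 0.0312) and had a rank-sum p of 0.347. Without replicates 5 and 10 the log2 fold change was -0.41 for H2-K1, -0.60 for H2-D1, -0.36 for both Tap1 and Psmb8 and -0.07 for Psmb9, and the rank-sum p of these 5 genes ran from 0.111 to 0.754.

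MHC class II genes were lower by means, while a single member had a rank-sum p under 0.05. Of 10 tested genes 5 were called and 1, Cd74, had a rank-sum p under 0.05. DESeq2 called 0 of the 10, with a median log2 fold change of -0.90. The median log2 fold change was -1.81, the median shift -0.31 and the median without replicates 5 and 10 -0.16. H2-Aa, an alpha chain, was at 0.285, 1.77 and 7.68 CPM with CNO and at a median of 2.04 CPM with vehicle. Vehicle replicate 5 had 263 CPM and replicate 10 had 62.1 CPM, and the other 9 ran from 0.746 to 8.93 CPM, within or close to the range of the CNO mice. H2-Aa fell by 3.84 ± 0.80 (adjusted p = 0.00897), its shift was -1.23 with a 95% interval that reached up to 0.28 (rank-sum p = 0.169), and 7 of 12 CNO mice were below the vehicle median. Without replicates 5 and 10 its log2 fold change was -0.43 (rank-sum p = 0.464). H2-Eb1 fell by 4.17 ± 0.87, the largest fold change of the 138, with 94.2% of its vehicle sum in these 2 mice and a rank-sum p of 0.211. H2-Ab1 fell by 3.92 ± 0.79 (rank-sum p = 0.0792). Cd74, the invariant chain, fell by 3.86 ± 0.80 with a rank-sum p of 0.0439 and had a log2 fold change of -0.59 without these mice.

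Many leukocyte genes, but not all, were high in the same 2 vehicle mice. The T cell receptor chain gene Cd3e, too low to be tested, had 165 reads in vehicle replicate 5 and 46 in replicate 10, at most 13 in the other vehicle mice and at most 8 in the CNO mice. Ms4a1, which encodes the B cell protein CD20, had 286 and 125 reads in these vehicle mice, at most 11 in the others and at most 9 with CNO. Ptprc, the pan-leukocyte gene that microglia also express, had 1622 and 603 reads, at most 233 in the other vehicle mice and at most 228 with CNO. Markers of some resident cells were also high in vehicle replicates 5 and 10. The 18 microglia identity genes summed to 1280 CPM in replicate 5 and 953 CPM in replicate 10, against at most 730 CPM in the other 21 mice. The 10 ependymal genes, of the cells that line the ventricles, summed to 36.5 and 31.8 CPM, against at most 29.6 CPM in the other vehicle mice and 26.3 CPM with CNO, and had a median log2 fold change of -0.37 (-0.07 without these mice) with 0 called. Ttr, a gene of the choroid plexus, had 196 reads in replicate 5, 0 in replicate 10 and at most 18 elsewhere. The 9 choroid plexus genes together summed to 57.3 and 50.8 CPM in these mice, within the vehicle range of 40.7 to 67.4 CPM. Endothelial genes summed to 387 and 388 CPM, against a vehicle median of 391 CPM. Medium spiny neuron genes summed to 9132 CPM, the lowest vehicle value, in replicate 5 and to 11458 CPM in replicate 10. The part of these cell types in the lower means was not tested. Of 9 tested B cell and plasma cell genes 2 were called (Cd79a and Mzb1) and 1 had a rank-sum p under 0.05, with a median log2 fold change of -2.09, a median shift of -0.54 and a median of -0.11 without these mice. Cd79a, a chain of the B cell receptor complex, fell by 2.42 ± 0.62 (adjusted p = 0.0398) with a rank-sum p of 0.288. Mzb1, a chaperone of antibody secretion, fell by 2.73 ± 0.69 with a rank-sum p of 0.235. Jchain, which joins secreted antibodies, ran from 0.321 through 12.8 to 52.8 CPM with CNO and from 0.532 through 25.6 to 565 CPM with vehicle, and did not pass (log2 fold change -2.24, adjusted p = 0.41). Among 5 tested T and NK cell genes only Ikzf3, a lymphocyte transcription factor, was called, and none had a rank-sum p under 0.05. Of 13 monocyte, dendritic cell and neutrophil genes 6 were called and 4 had a rank-sum p under 0.05. Cybb, of the phagocyte oxidase, fell by 2.25 ± 0.47 (rank-sum p = 0.0225) and Itgal, a leukocyte integrin, by 1.96 ± 0.42 (rank-sum p = 0.0317), whereas Ly6c2, of monocytes, fell by 3.17 ± 0.83 with a rank-sum p of 0.26. Without replicates 5 and 10 the log2 fold change was -0.71 for Cybb and -0.34 for Itgal (rank-sum p = 0.0815 and 0.111), and the median of the 13 genes moved from -1.21 to -0.24.

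Complement and activated glial genes were called more often than the 0.871% of all tested genes, complement genes by means only. A lower rank-sum p under 0.05 was found for 4 of 18 activated microglia genes (22.2%) and 5 of 26 reactive astrocyte genes (19.2%). Over all tested genes it was 2.18%. Of 15 tested complement genes 3 were called (C3, C1s1 and Serping1) and 0 had a rank-sum p under 0.05. C3, the central component, fell by 3.48 ± 0.71 (adjusted p = 0.00876). It was at 0.291, 2.80 and 10.3 CPM with CNO and at 1.41, 3.95 and 309 CPM with vehicle, with a shift of -1.05 and a rank-sum p of 0.134. Besides vehicle replicates 5 and 10, replicates 1, 6 and 11 were above every CNO mouse, at 15.5, 22.3 and 21.5 CPM. With vehicle replicates 5 and 10 left out, C3 had a log2 fold change of -1.15 (rank-sum p = 0.382), and the median of the complement list moved from -0.64 to -0.15. Of 18 microglia identity genes 0 were called by edgeR and 0 had a rank-sum p under 0.05, and the median log2 fold change was -0.16 with all mice and 0.00 without vehicle replicates 5 and 10. Of the 18 genes 16 had a negative log2 fold change, down to -1.03, and 16 were highest in vehicle replicate 5. Tmem119, a microglial membrane protein, was at 85.9 and 58.7 CPM in vehicle replicates 5 and 10 and at most 40.4 CPM in the CNO mice (log2 fold change -0.33, adjusted p = 0.48, rank-sum p = 0.211, and -0.02 without these mice). P2ry12, the microglial purine receptor, was at 37.8 to 69.0 CPM with CNO and 36.4 to 80.3 CPM with vehicle (log2 fold change 0.00, 95% interval of the shift -0.24 to 0.28). Of 18 activated microglia genes 4 were called, among them Cst7, a cystatin, which fell by 2.85 ± 0.57 (shift -1.50, rank-sum p = 0.0106) with all 12 CNO mice below the vehicle median, and had a log2 fold change of -1.36 without replicates 5 and 10 (rank-sum p = 0.0409). Of 26 reactive astrocyte genes 4 were called. Psmb8, Gbp2 and Serping1 among them are also members of the MHC class I, GTPase and complement lists described above. The remaining call was Vim, an intermediate filament protein, which fell by 0.84 ± 0.22 (adjusted p = 0.0468, rank-sum p = 0.134). Gfap, the other filament protein, was at 32.7, 101 and 221 CPM with CNO and at 58.2, 111 and 418 CPM with vehicle and did not pass (log2 fold change -0.48, adjusted p = 0.807). Icam1, an adhesion protein for leukocytes on vessels, fell by 0.98 ± 0.26 (adjusted p = 0.0493, rank-sum p = 0.0268), and was the only call among 8 tested leukocyte adhesion genes. Its log2 fold change without replicates 5 and 10 was -0.26 (rank-sum p = 0.111), and the median of the list moved from -0.25 to -0.12.

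**Figure D4:**
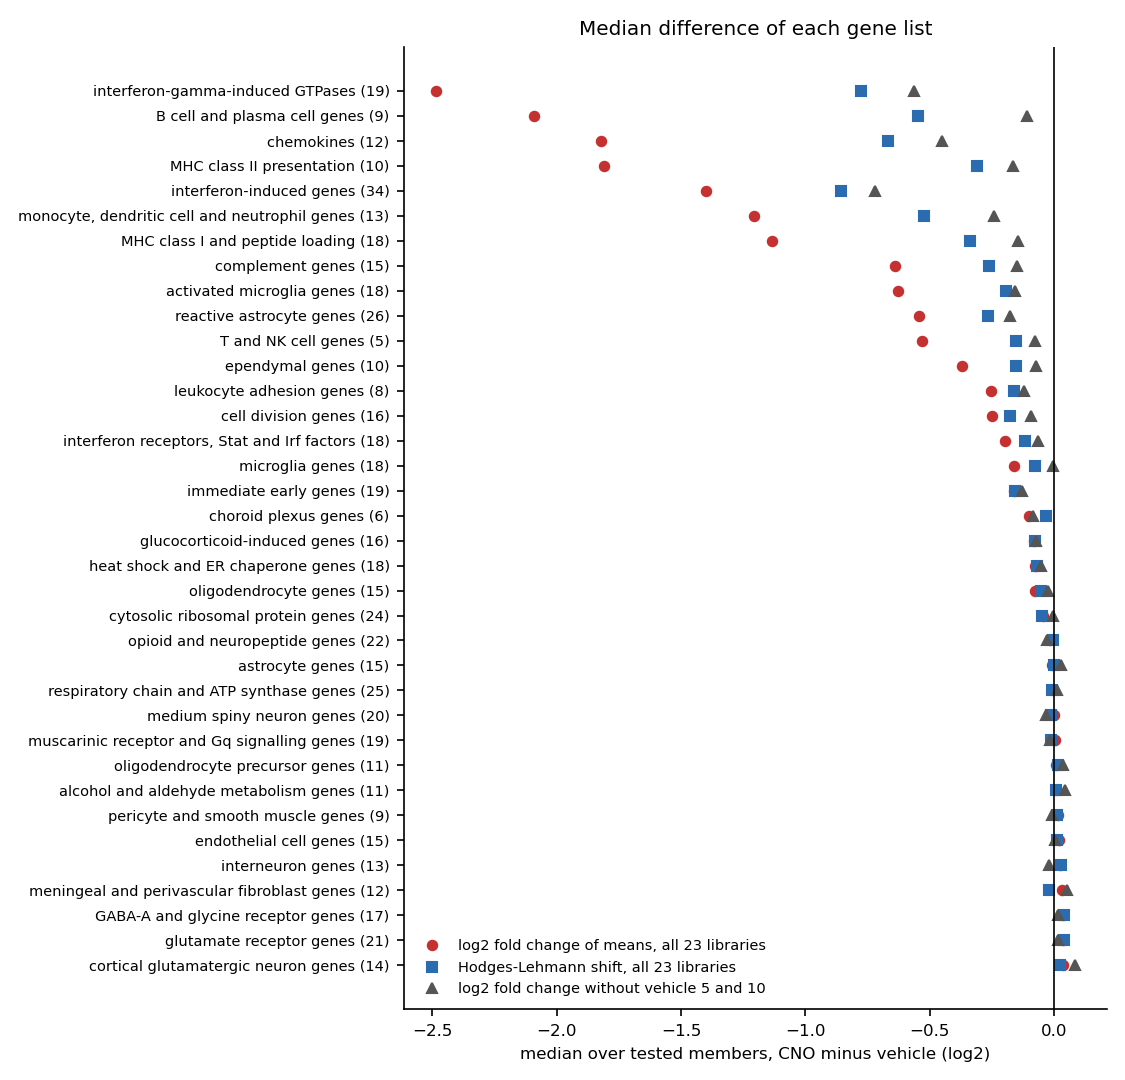
Median over the tested members (number in brackets) of the 36 gene lists with more than 1 tested member, as the log2 fold change of the means (red circles), as the Hodges-Lehmann shift (blue squares) and as the log2 fold change without vehicle replicates 5 and 10 (grey triangles). The interferon-induced list has medians of -1.40, -0.86 and -0.72, the MHC class II list -1.81, -0.31 and -0.16, and neuron, vessel and metabolic lists lie near 0 by all 3 measures.

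A few called genes had small differences that most mice shared. Maff, a small Maf transcription factor, had the smallest rank-sum p of all tested genes (6.66e-05). It was at 0.790, 1.08 and 1.38 CPM with CNO and at 1.15, 1.40 and 3.16 CPM with vehicle, and the second highest vehicle mouse was at 1.58 CPM. Every CNO mouse was below the vehicle median, and 6 vehicle mice were above every CNO mouse. Maff fell by 0.53 ± 0.13 (adjusted p = 0.0352), with a shift of -0.39 (95% interval -0.61 to -0.19), and without replicates 5 and 10 the log2 fold change was -0.35 (rank-sum p = 0.000204). Swap70, a guanine nucleotide exchange factor of B cells and other cells, was at 10.4, 11.7 and 12.8 CPM with CNO and at 11.7, 13.6 and 21.2 CPM with vehicle, with all 12 CNO mice below the vehicle median and 7 vehicle mice above all CNO mice. Its log2 level fell by 0.30 ± 0.07 (adjusted p = 0.02, shift -0.21, rank-sum p = 0.000737). Gadd45g, a stress-induced gene of growth arrest and DNA demethylation, was at 8.28, 10.0 and 12.7 CPM with CNO and at 10.2, 12.0 and 13.1 CPM with vehicle. Gadd45g fell by 0.22 ± 0.06 (adjusted p = 0.039, shift -0.24, rank-sum p = 0.00449), vehicle replicates 5 and 10 were at 11.0 and 12.3 CPM, and without them the log2 fold change was -0.23. March11, a membrane ubiquitin ligase, did not pass edgeR (log2 fold change -0.28, adjusted p = 0.135) and had 11 CNO mice below the vehicle median (rank-sum p = 0.000981, and 0.000939 without replicates 5 and 10).

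At the other end stood Slpi, a secreted inhibitor of leukocyte proteases. It was at 0.199, 0.939 and 1.59 CPM with CNO and at a median of 0.886 CPM with vehicle, with 65.2 CPM in vehicle replicate 5, 9.26 CPM in replicate 10 and at most 2.00 CPM in the others. Slpi fell by 3.08 ± 0.71 by means (adjusted p = 0.0187), whereas 5 of the 12 CNO mice were below the vehicle median (shift -0.26, rank-sum p = 0.608), and without these mice the log2 fold change was 0.00. Of the 138 called genes 58 were in none of the 37 gene lists, and 38 of the 58 had a rank-sum p under 0.05. Examples, picked after their values were seen, were Ctsw, a cathepsin of cytotoxic lymphocytes, which was above every CNO mouse in 9 of 11 vehicle mice (CNO 0.161, 0.276 and 0.334 CPM, vehicle 0.173, 0.415 and 3.91 CPM, rank-sum p = 0.00169). Cd274, which encodes the checkpoint ligand PD-L1, fell by 1.65 ± 0.37 with all 12 CNO mice below the vehicle median (rank-sum p = 0.0439). Its receptor gene Pdcd1 fell by 2.20 ± 0.50 with 8 of 12 below (rank-sum p = 0.104). Without vehicle replicates 5 and 10 the log2 fold change was -0.71 for Ctsw (rank-sum p = 0.00725), -0.30 for Cd274 (0.148) and -0.29 for Pdcd1 (0.277).

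No gene passed in the higher direction by either test. Cyp4x1, a cytochrome P450 of brain, had the smallest adjusted p by edgeR, at 5.92, 7.48 and 10.0 CPM with CNO and 4.35, 5.84 and 7.51 CPM with vehicle. All 12 CNO mice were above the vehicle median (log2 fold change 0.32 ± 0.09, adjusted p = 0.0696, shift 0.30, rank-sum p = 0.00356), and DESeq2 called it. By the rank-sum test Tbc1d9b, Nudt13 and Galr2 were among the genes with a smaller p than Cyp4x1. Among the 10 higher genes with the smallest rank-sum p at a mean log2 CPM of at least 0 were Cyp4x1, Tbc1d9b and Nudt13. The others were Celrr, Iqcc, Rhbdd3, Thtpa, Wdr73, Zbtb8os and Zfp59, and Galr2 was not among the 10. Tbc1d9b, a putative Rab GTPase activator, was at 284 to 338 CPM with CNO and 250 to 298 CPM with vehicle, again with all 12 CNO mice above the vehicle median (log2 fold change 0.13 ± 0.04, adjusted p = 0.156, rank-sum p = 0.000401). Nudt13 had a log2 fold change of 0.16 ± 0.05 with a rank-sum p of 0.000737. Galr2, a receptor of the peptide galanin, was at medians of 0.973 CPM with CNO and 0.344 CPM with vehicle (log2 fold change 1.10 ± 0.33, adjusted p = 0.11, rank-sum p = 0.0028). At least 11 of 12 CNO mice were above the vehicle median in 316 of all tested genes (1.99%).

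Neuronal, vascular and metabolic lists had no call by edgeR or by the adjusted rank-sum test. Of 20 medium spiny neuron genes 10 had a negative and 10 a positive log2 fold change, with a median of 0.00. Drd1 was at 192, 232 and 308 CPM with CNO and at 189, 255 and 299 CPM with vehicle (log2 fold change -0.03, 95% interval of the shift -0.21 to 0.13). Drd2 (0.02), Pdyn (-0.04), Penk (-0.01) and Tac1 (0.00), which mark the direct and indirect pathway neurons or their peptides, had log2 fold changes near 0. Of 21 glutamate receptor genes 18 had a positive log2 fold change, with a median of 0.04. Among 22 opioid and neuropeptide genes Npy5r, a neuropeptide Y receptor, had a rank-sum p of 0.0317 (log2 fold change 0.11, adjusted p = 0.712).

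Immediate early genes, which neuronal firing induces, were slightly lower in the CNO mice without passing either test. All 19 had a negative log2 fold change and a negative shift, with medians of -0.16 for both, and -0.13 without vehicle replicates 5 and 10, against 7659 negative values among 15852 tested genes. Arc, a synaptic regulator, was at 39.6, 62.3 and 119 CPM with CNO and 55.2, 86.5 and 115 CPM with vehicle (log2 fold change -0.30, adjusted p = 0.797, rank-sum p = 0.104). Fos was at 5.72, 10.0 and 23.4 CPM with CNO and at 6.67, 14.5 and 21.6 CPM with vehicle (log2 fold change -0.23, adjusted p = 0.996). The groups overlapped over almost their whole range for both genes. The 19 genes were read in the same mice, so their values are not independent.

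Of 16 cell division genes all had a negative log2 fold change, with a median of -0.25 that was -0.09 without vehicle replicates 5 and 10, and 2 had a rank-sum p under 0.05. Of 16 glucocorticoid-induced genes 3 had a lower rank-sum p under 0.05 and 0 were called by edgeR. Cdkn1a, a cell cycle inhibitor, was at 9.06, 11.2 and 13.4 CPM with CNO and at 12.0, 13.3 and 23.3 CPM with vehicle (log2 fold change -0.30, adjusted p = 0.218, rank-sum p = 0.00218). Of 15 oligodendrocyte genes 14 had a negative value, with a median of -0.07, and Cldn11, a claudin of myelin, had all 12 CNO mice below the vehicle median (log2 fold change -0.18, adjusted p = 0.423, rank-sum p = 0.0439).

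Chrm3 is the mouse gene whose human counterpart hM3Dq was made from. It was at 15.8, 96.6 and 183 CPM with CNO and 64.1, 152 and 241 CPM with vehicle (log2 fold change -0.48 ± 0.28, adjusted p = 0.842, rank-sum p = 0.169). Chrm1, the main muscarinic receptor of forebrain neurons, was at a narrower 168 to 216 CPM with CNO and 169 to 222 CPM with vehicle. Whether reads of the viral transgene were counted as Chrm3 was not tested. Of 19 tested muscarinic and Gq signalling genes 0 were called by edgeR and 0 had a rank-sum p under 0.05.

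In water drinkers CNO was compared with vehicle in 11 against 11 mice with the same viruses and doses. There edgeR called 11 genes (0.0694%) and the rank-sum test 7 (0.0442%), among them Cxcl10, Ccl5, Cxcl11, Oasl1 and Ifi44l. Cxcl10 ran from 0.227 through 0.484 to 0.899 CPM with CNO and from 0.832 through 3.14 to 30.8 CPM with vehicle (log2 fold change -3.58, rank-sum adjusted p = 0.03). The interferon-induced list had a median log2 fold change of -1.27 there against -1.40 in alcohol drinkers, the GTPase list -0.88 against -2.49, MHC class II -0.54 against -1.81, and B cell genes 0.15 against -2.09. Without alcohol vehicle replicates 5 and 10 the alcohol medians were -0.72 for interferon-induced genes, -0.56 for GTPases, -0.16 for MHC class II and -0.11 for B cell genes. With all mice, the median shift of interferon-induced genes was -1.09 in water drinkers against -0.86 in alcohol drinkers. It was -0.67 against -0.78 for GTPases, -0.42 against -0.31 for MHC class II and 0.07 against -0.54 for B cell genes. The test of the difference between fluids, edgeR's interaction, called 0 of 15852 genes (0%), with 496 at an unadjusted p under 0.05 (3.13%) and a smallest adjusted p of 0.983. The difference was 0.66 ± 0.85 for Cxcl10 (unadjusted p = 0.441). Of the 138 genes 74 were lower in water drinkers at a rank-sum p under 0.05, against 477 of all genes (3.01%).

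The edgeR calls depended on which libraries entered the fit. Leaving out vehicle replicate 5 left 0 calls and leaving out replicate 10 left 51, whereas without vehicle replicate 4, 8 or 9 there were 240, 220 and 230. The calls were also 0 when only the 23 alcohol libraries were fitted and when blocks of consecutive S numbers in the titles were added as a covariate, where all 138 genes kept a negative log2 fold change with a median of -1.58 against -1.92.

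**Figure D5:**
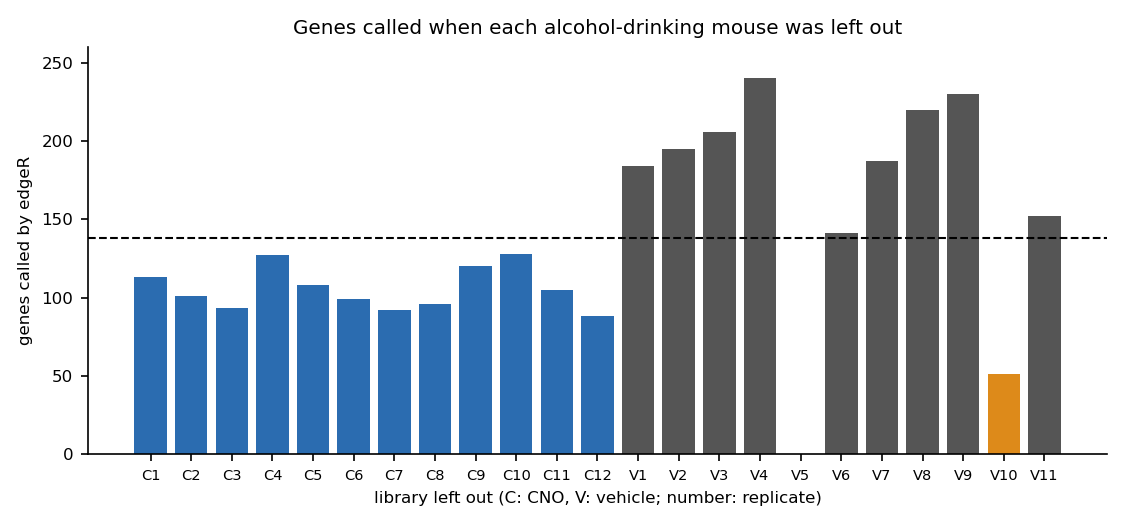
Number of genes called by edgeR when each of the 23 alcohol-drinking mice was left out of the fit, with the dashed line at the 138 called with all of them. Without vehicle replicate 5 there were 0 calls and without replicate 10 there were 51, and leaving out a CNO mouse gave 88 to 128.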

How the data were processed

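Nucleus accumbens RNA of 45 mice was sequenced, of which the 12 alcohol CNO and 11 alcohol vehicle libraries are compared here. The authors deposited raw counts, whole reads per gene symbol with no normalization, made with FastQC, STAR and HTSeq 0.9.1 on GRCm38 (mm10), per the submitters' processing notes. Neither the annotation nor the strand setting or counting mode is stated there. HTSeq's summary rows were kept apart from 24421 genes; reads in no gene were 19.3% of unique reads with CNO and 18.6% with vehicle.

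Genes were filtered with filterByExpr by group and scaled by TMM, and a robust quasi-likelihood model (edgeR 4.0.16, R 4.3.3) was fitted to all 45 libraries, with Benjamini-Hochberg adjusted p under 0.05 as the threshold. SEs are the fold change divided by the root of F. Beside it, each gene had an exact two-sided rank-sum permutation test and a Hodges-Lehmann shift of log2 CPM (prior count 2, which draws shifts of low genes toward 0, Python 3.11.15). Library depth and the cortical marker level were compared with 100000 permutations. Alternatives were other scalings and filters, DESeq2 1.42.0, limma 3.58.1 (voom and limma-trend), an S-number block inferred from the titles, and libraries left out. The tests were tried on simulated data.

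The comparison, the 37 gene lists (614 symbols, 601 in the files, 556 tested) and the alternatives were chosen with earlier results of these data known. Named genes were taken from the 10 with the smallest p of each test and direction at a mean log2 CPM of at least 0. They were also taken from the first 2 and the 3 with the smallest p of each list, and from 9 genes of the region. Called genes at the extremes of rank-sum p and of the gap between fold change and shift were added. Others are said to be picked later or are list members named in a count. Each library is a separate mouse, and p-values rest on the spread between mice. For edgeR, p-values and SEs use a spread per gene estimated from all 45 mice, water drinkers included. They do not measure the spread among the 23 compared mice alone. With only these 23 libraries fitted, the 138 calls became 0 (smallest edgeR adjusted p = 0.271). The rank-sum p-values of the alcohol comparison use the 23 compared mice only.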

Additional observations from a re-analysis of the deposited data

How the results depend on the processing

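The count of 138 edgeR calls became 0 with the 23 alcohol libraries alone, with voom and sample weights, with the S-number block and without vehicle replicates 5 and 10, where the smallest adjusted p were 0.271, 0.195, 0.116 and 1.00. It became 221 with no filter and 223 at an adjusted p under 0.1, and was 139 with either other scaling, 93 at a mean CPM of at least 1 and 179 with DESeq2, which shared 119 genes. Leaving out each library gave 0 (vehicle replicate 5) to 240 (vehicle replicate 4), with 51 without vehicle replicate 10, 88 without CNO replicate 12, and 220 and 230 without vehicle replicates 8 and 9. The rank-sum test called 0 genes in every setting run. The MHC class II median of -1.81 became -3.86 at a mean CPM of at least 1, where 7 members were tested and the median shift went from -0.31 to -1.09, -0.39 with voom and -0.16 without vehicle replicates 5 and 10. The interferon-induced median ran from -1.57 to -1.06 when 1 library was left out and was -0.72 without both. Slpi turned to 0.000789 without both. Other causes were not tested. The interaction called 0 genes in each setting run. No paired analysis was possible because each mouse has its own number and no label pairs mice across groups. The vehicle median was under 1 CPM in 54 of the 138 called genes, where few reads make the level of a single mouse imprecise.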

Other observations

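Vehicle replicates 5 and 10 were high in both type I and gamma-induced genes, but which of them was the highest differed. Vehicle replicate 10 was the highest vehicle mouse in 16 of the 34 tested interferon-induced genes, replicate 5 in 18, whereas replicate 5 was the highest in all 19 gamma-induced GTPases, all 18 MHC class I genes and all 10 MHC class II genes. Among the CNO mice, replicate 9 was the highest for Cxcl10, Irf7, Isg15, Ifit1, Mx1 and Irf9, while replicate 4 was the highest for H2-Aa, replicate 5 for Gm12250 and replicate 11 for C3. These genes were looked at after their values were seen, and no test was made.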
